A study of Mus musculus with 12 samples.

Results

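The comparison set skeletal muscle of all tumour-bearing mice against muscle of tumour-free mice, whatever the chow, and so covered 8 tumour-bearing and 4 Sham libraries, which are all 12 libraries of the series. RNA was sequenced from tibialis anterior, a fast muscle of the lower leg, of C57BL/6J mice. The groups were KPC (KPC pancreatic cancer cells injected into the exposed pancreas, standard chow, 4 libraries), KPC_UA (the same tumour, chow supplemented with ursolic acid, a plant triterpenoid, 4 libraries) and Sham (no tumour, standard chow, 4 libraries). None of the 12 libraries came from tumour-free mice fed ursolic acid, so that the pooled contrast averages over tumour-bearing mice of both chows but its Sham side holds standard chow alone. KPC cells derive from a genetically engineered mouse model of pancreatic ductal adenocarcinoma, and the labels name no clone. The labels used here give no age, sex, dose, time after injection or sham procedure, and do not say whether the libraries of a group came from separate mice. The tests therefore speak only of the scatter among these libraries, which may be technical. Of the genes in the deposited tables, 13244 were listed in all 3 and were tested, with 22.3 to 32.0 M reads per library in them. All values below are normalised read counts (reads divided by a size factor per library), and differences are on the log2(normalised read count + 1) scale, tumour-bearing minus Sham, which understates changes of low transcripts. Counts are not divided by transcript length, so levels of different genes are not compared.

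Cancer cachexia is the loss of muscle and fat in a host with a tumour. In muscle it is known for higher transcripts of the ubiquitin ligases Trim63 (MuRF1) and Fbxo32 (atrogin-1), which FOXO transcription factors drive and insulin-like growth factor signalling restrains, and for inputs from glucocorticoids and from cytokines of the interleukin-6 family that act through STAT3. Muscle that lacks fuel shifts from glucose to fatty acids, and matrix made by interstitial fibroblasts surrounds the fibres.

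By edgeR, tumour-bearing muscle held higher transcripts of cytokine and death receptors (Csf2rb, Il4ra, Fas) and of the proline-degrading enzyme Prodh, and lower transcripts of the fatty acid desaturase Scd1, the collagen chain Col1a2 and the growth factors Fgf6 and Gdf11. At an unadjusted p, many genes of fasting and glucocorticoid response were higher and many collagen and tendon genes lower. Those genes belong to lists that were chosen with earlier results of these data known. No gene passed an adjusted p of 0.05 in limma (0.0% of 13244 genes), the smallest adjusted p being 0.0539, which together with the next values put 56 genes under 0.06. At an unadjusted limma p under 0.05, 958 genes (7.23%) were higher and 1098 (8.29%) lower in tumour-bearing muscle. The count differed between tests. edgeR's quasi-likelihood test on the recovered reads called 9 genes higher (0.068%) and 31 lower (0.234%), DESeq2 called 251 higher (1.9%) and 279 lower (2.11%), and limma with a weight per group called 239 higher (1.8%) and 342 lower (2.58%). All 40 genes called by edgeR (0.302%) were also called by both DESeq2 and limma with a weight per group.

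Separation of the libraries was also counted without a model. In 152 genes (1.15%) every tumour-bearing library was above every Sham library, and in 149 (1.13%) every tumour-bearing library was below every Sham library, 301 (2.27%) in all. Of the 152 higher genes the KPC mean lay farther from Sham than the KPC_UA mean in 147, and of the 149 lower genes in 148, without a test of that count. The same share over all tested genes was not counted, so these counts cannot show a trait particular to the separated genes. The median difference from Sham in the 152 higher genes was 0.97 in KPC and 0.42 in KPC_UA, and in the 149 lower genes -1.22 in KPC and -0.57 in KPC_UA. The rule chose these genes by their separation, so the medians only describe them.

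The libraries were uneven. The median standard deviation of a gene within its group on the log2 scale was 0.457 in KPC, 0.229 in KPC_UA and 0.222 in Sham, and KPC had the widest spread in 75.9% of genes. On the first principal component (54.7% of the variance) KPC 1 stood at 120.6, KPC 4 at 50.6, KPC 2 was the lowest KPC library at -8.55, the KPC_UA libraries lay between -24.5 and -0.98, and the Sham libraries between -32.6 and -27.0. On the second (13.6%) KPC 4, KPC_UA 2 and Sham 1, 1 library of each group, stood at 49.5, 28.7 and 25.0, above the others. In the same 3 libraries the median deviation of long minus short transcripts was lowest, at -0.484, -0.497 and -0.452. Leaving out KPC 2 raised the limma count to 473 genes and leaving out KPC 1 to 202, leaving out KPC_UA 1 to 42, and leaving out KPC 1 and 4 together to 279. Without KPC 4, KPC_UA 2 and Sham 1 together, a setting chosen after seeing the data, it was 0.

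**Figure D1:**
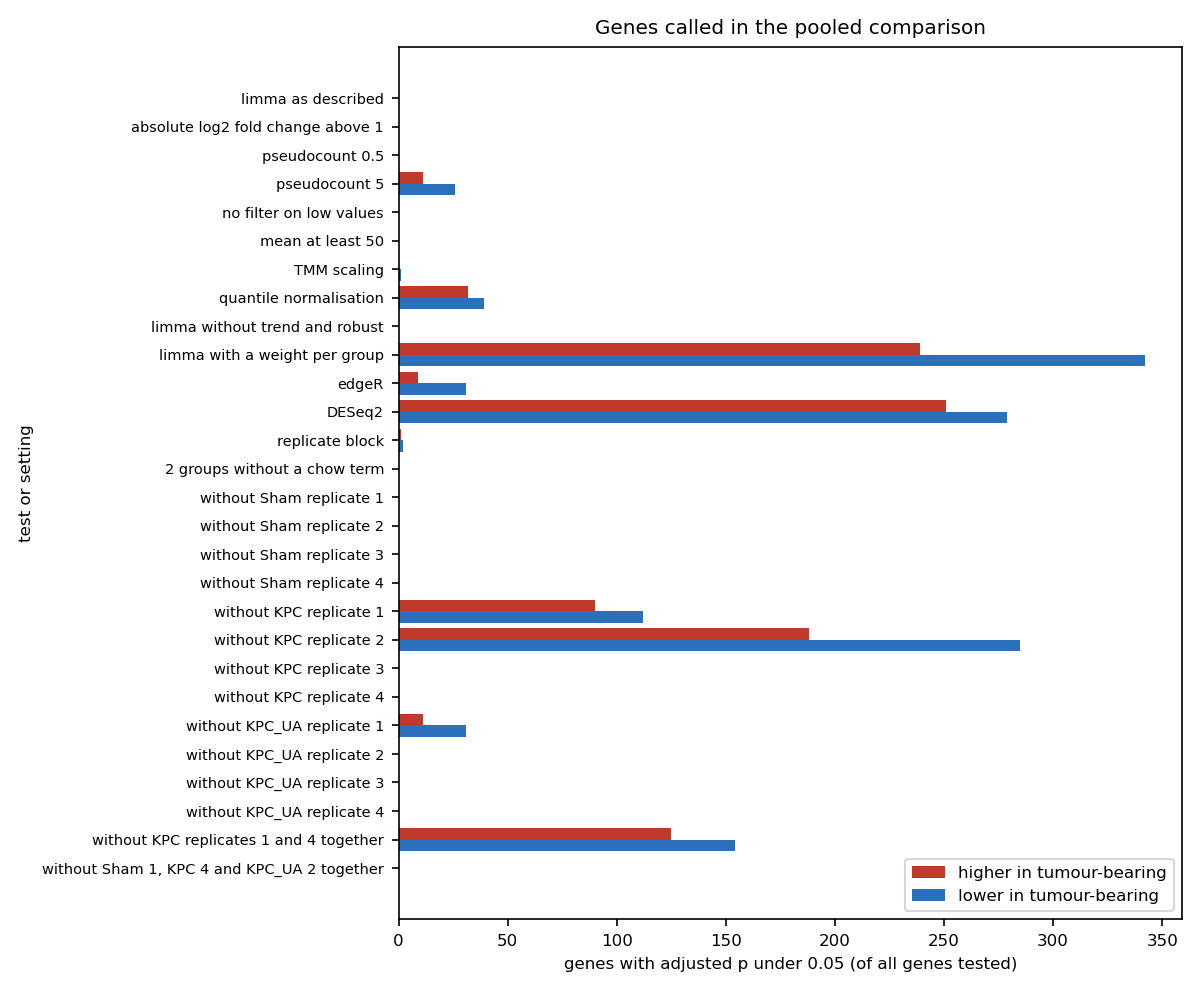
Number of genes at an adjusted p under 0.05 in the pooled comparison (horizontal axis) under each test or setting (rows), red for higher and blue for lower in tumour-bearing muscle. The count is 0 for limma as described, 9 and 31 for edgeR, 251 and 279 for DESeq2 and 239 and 342 for limma with a weight per group, and it differs with which KPC library is left out.

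The rule for naming leading genes takes called genes with no overlap between the 8 and the 4 libraries and a mean of at least 50 normalised reads. Of these it keeps at most the 10 with the largest difference in each direction. It found 0 genes with limma, and edgeR's calls were put in its place after the values were seen. That gave 7 higher genes and 10 lower ones, the most the rule keeps, so further lower genes such as Ccl11 were left out. The separation of tumour-bearing from Sham libraries given for each leading gene was required by the rule and only describes the gene. Of the 7 higher genes, Csf2rb and Il4ra encode chains of cytokine receptors. Csf2rb (chr15:78325752-78353847, plus strand, GRCm38), the shared beta chain of the receptors for interleukin-3, interleukin-5 and GM-CSF, had 77.7, 108, 139 and 146 in the KPC libraries, 61.6, 76.6, 127 and 76.9 in the KPC_UA libraries and 18.6, 38.6, 43.9 and 21.1 in the Sham libraries. Every tumour-bearing library was above the highest Sham library, and the KPC and KPC_UA ranges overlapped. The mean was 102 ± 32.6 in tumour-bearing muscle (SD, n = 8) and 30.5 ± 12.6 in Sham (SD, n = 4), a difference of 1.73 (SE 0.28, adjusted p = 0.0539 by limma and 0.0481 by edgeR). Il4ra, the receptor chain for interleukin-4 and interleukin-13, had 458, 232, 386 and 322 in the KPC libraries, 175, 225, 338 and 224 in the KPC_UA libraries and 109, 135, 155 and 119 in the Sham libraries. All 8 tumour-bearing libraries were above Sham, while KPC and KPC_UA overlapped each other, and the difference was 1.13 (SE 0.21, adjusted p = 0.0539 by limma and 0.0487 by edgeR). Osmr, the oncostatin M receptor of the interleukin-6 family, had 320.1, 331, 398 and 278 in the KPC libraries, 189, 234, 433 and 301 in the KPC_UA libraries and 103, 176, 118 and 166 in the Sham libraries. It was also separated in all 8 libraries, with a difference of 1.13 and an adjusted p of 0.0561 by limma and 0.0517 by edgeR, just outside the threshold.

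Fas, the receptor that starts extrinsic apoptosis, differed by nearly the same amount in both tumour-bearing groups. It had 154, 128, 175 and 153 in the KPC libraries, 144, 174, 158 and 135 in the KPC_UA libraries and 63.1, 69.5, 70.2 and 111 in the Sham libraries. The lowest tumour-bearing library lay above the highest Sham library, Sham 4, which was itself apart from the other Sham libraries. The difference was 0.98 (SE 0.17, adjusted p = 0.0539 by limma and 0.0487 by edgeR). Litaf, a lysosomal membrane protein first described as induced by lipopolysaccharide, had 259, 176, 193 and 174 in the KPC libraries, 131, 158, 185 and 140.0 in the KPC_UA libraries and 112, 87.5, 76.7 and 91.4 in the Sham libraries. Again no tumour-bearing library reached down to the Sham range (difference 0.92, adjusted p = 0.0487 by edgeR). Sema3g, a secreted semaphorin of endothelial cells, had 678, 404, 524 and 658 in the KPC libraries, 332, 329.7, 345 and 348 in the KPC_UA libraries and 274, 227, 235 and 273 in the Sham libraries. Its KPC_UA libraries lay within a narrow band between the other groups (difference 0.78, adjusted p = 0.0487 by edgeR).

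Prodh, the mitochondrial enzyme that takes the first step of proline breakdown, had 584, 428, 622 and 716 in the KPC libraries, 290.5, 441, 700.0 and 451 in the KPC_UA libraries and 266, 223, 247 and 207 in the Sham libraries. All 8 tumour-bearing libraries were above all 4 Sham libraries, KPC_UA 1 by the least, and the difference was 1.11 (SE 0.21, adjusted p = 0.0539 by limma and 0.0487 by edgeR). The largest difference of a leading higher transcript was that of mt-Tf, the mitochondrial tRNA for phenylalanine, which had 557, 332, 553 and 491 in the KPC libraries, 172, 304, 216 and 351 in the KPC_UA libraries and 143, 48.9, 71.3 and 119 in the Sham libraries. The difference was 1.96 (SE 0.28, adjusted p = 0.0481 by edgeR), with no overlap of tumour-bearing and Sham libraries. All 19 mitochondrial tRNAs tested had a positive difference, with a median of 0.43, against a median of 0.12 for the 13 mitochondrial mRNAs, of which 12 were positive. The mt-Tf gene (chrM:1-68, plus strand) adjoins a mitochondrial rRNA gene, and the sharing of reads between neighbours was not tested.

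The 250 bases before the RefSeq start were searched for motifs in 11 of the 17 leading genes, all but mt-Tf, Csf2rb, Map3k7cl, Scd1, Ighm and Gprc5c. Of these 11, Fas and Prodh hold a STAT-type motif, and their promoters are shown because it is the longest motif found among them. The letters searched on both strands were TGTTTAC (forkhead), AGAACA (glucocorticoid receptor), TTCNNNGAA (STAT) and CACGTG (E-box), beside the full palindromic glucocorticoid receptor element and the direct repeat bound by PPAR with RXR. Trim63 was added after its values and sequence were seen, since it is the best known ligase of muscle atrophy and holds a forkhead motif that adjoins an AGAACA motif on the opposite strand. Sequences are those of RefSeq on GRCm38.p6, 5′ to 3′ on the strand of the gene, with motif letters in capitals (Fas chr19:34290409-34290658, plus strand; Prodh chr16:18089191-18089440, minus strand; Trim63 chr4:134314870-134315119, plus strand).
Fas: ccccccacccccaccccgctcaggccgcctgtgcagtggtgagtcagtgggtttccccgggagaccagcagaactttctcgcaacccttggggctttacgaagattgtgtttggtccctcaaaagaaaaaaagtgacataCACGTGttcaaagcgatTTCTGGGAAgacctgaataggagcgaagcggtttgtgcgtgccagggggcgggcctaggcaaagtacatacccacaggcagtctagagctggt
Prodh: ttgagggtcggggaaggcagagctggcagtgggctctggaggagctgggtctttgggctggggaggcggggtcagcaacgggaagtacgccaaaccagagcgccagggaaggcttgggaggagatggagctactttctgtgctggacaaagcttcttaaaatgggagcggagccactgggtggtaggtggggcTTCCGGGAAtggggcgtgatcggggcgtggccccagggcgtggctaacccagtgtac
Trim63: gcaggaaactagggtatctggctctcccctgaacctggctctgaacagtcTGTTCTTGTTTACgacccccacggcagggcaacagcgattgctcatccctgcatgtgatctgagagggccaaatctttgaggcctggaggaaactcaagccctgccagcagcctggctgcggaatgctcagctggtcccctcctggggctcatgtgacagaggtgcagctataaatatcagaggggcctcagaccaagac
In Fas the capitals mark an E-box that begins 110 bases before the start and a STAT motif that begins 93 bases before it, in Prodh a STAT motif that begins 57 bases before it, and in Trim63 an AGAACA motif read on the other strand that begins 200 bases before it, followed at 194 bases by the forkhead motif. The STAT letters stood in 8.33% of the 120 promoters found for higher genes with no overlap and in 3.67% of the 109 found for lower ones, against 5.82% of the 9882 found for tested genes and 7.18% of all 27025 promoters in the table. The forkhead letters stood in 1.67% of the higher and 5.5% of the lower set, against 2.09% for tested genes and 3.09% of all promoters. AGAACA stood in 12.5% and 13.8%, above the 10.8% for tested genes and below the 16.2% of all promoters. CACGTG stood in 8 of the 120 and in 12 of the 109, against 8.61% for tested genes and 6.05% of all promoters, where 8 of 120 is 6.67%. The side on which AGAACA in both sets and CACGTG in the higher set lay thus depended on the background used. The PPAR repeat and the full glucocorticoid element were in none of the promoters of the no-overlap genes, in 0.0304% and 0.0% of those for tested genes and in 0.037% and 0.0037% of all promoters. A match describes letters in this window and is not evidence of binding.

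Among the leading lower genes, Scd1, the stearoyl-CoA desaturase that makes monounsaturated fatty acids, had the smallest adjusted p in edgeR. It had 184, 89.8, 97.5 and 61.2 in the KPC libraries, 275, 144, 184 and 178 in the KPC_UA libraries and 537, 822, 401 and 585 in the Sham libraries. The highest tumour-bearing library lay well below the lowest Sham library, Sham 3. The mean was 152 ± 68.7 in tumour-bearing muscle (SD, n = 8) and 586 ± 175 in Sham (SD, n = 4; difference -2.04, SE 0.27, adjusted p = 0.0539 by limma and 0.037 by edgeR). Map3k7cl, a small protein named for its likeness to the C-terminal part of the kinase TAK1, had 29.0, 81.9, 98.7 and 71.2 in the KPC libraries, 385, 232, 84.8 and 215 in the KPC_UA libraries and 439.8, 979, 1219 and 457 in the Sham libraries. It had the largest difference of the leading genes, -2.61 (SE 0.42, adjusted p = 0.0481 by edgeR), and the KPC libraries were the lowest of the 3 groups apart from an overlap with KPC_UA 3. Fgf6, a fibroblast growth factor made mostly by muscle, had 34.2, 87.6, 85.4 and 95.7 in the KPC libraries, 146, 90.6, 82.1 and 98.6 in the KPC_UA libraries and 212, 334, 328 and 159.7 in the Sham libraries. The KPC and KPC_UA libraries overlapped, and all lay below the lowest Sham library (difference -1.53, SE 0.29, adjusted p = 0.0481 by edgeR).

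Npr3, the clearance receptor for natriuretic peptides, had 104, 109, 109.7 and 81.9 in the KPC libraries, 208, 146, 197 and 190.3 in the KPC_UA libraries and 229, 488, 1222 and 263 in the Sham libraries. Sham was spread over a wide range and its lowest library was close to the highest KPC_UA library (difference -1.67, adjusted p = 0.0481 by edgeR). Ighm, the constant region of immunoglobulin M, had 86.9, 282, 136 and 78.8 in the KPC libraries, 356, 424, 344 and 263 in the KPC_UA libraries and 535, 925, 1041 and 471 in the Sham libraries. KPC 1, KPC 3 and KPC 4 were the lowest, KPC 2 lay above KPC_UA 4, and no tumour-bearing library reached the Sham range (difference -1.74, adjusted p = 0.0481 by edgeR). None of the 6 T and B cell markers of the list used here was among the tested genes. The other leading lower genes were Gadl1 (-1.55), an enzyme of beta-alanine and carnosine metabolism, Fbxl22 (-1.37), an F-box protein of the sarcomeric Z-disc, Ddah1 (-1.29), which degrades the nitric oxide synthase inhibitor dimethylarginine, Gprc5c (-1.12), an orphan receptor, and Pcsk6 (-1.05), a proprotein convertase. Ddah1 had 34.2, 80.8, 86.5 and 36.7 in the KPC libraries, 129.8, 123, 134 and 101 in the KPC_UA libraries and 204, 228, 189.7 and 184 in the Sham libraries. The groups were ordered KPC, KPC_UA and Sham with no overlap between any of them (adjusted p = 0.0487 by edgeR for tumour-bearing against Sham).

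**Figure D2:**
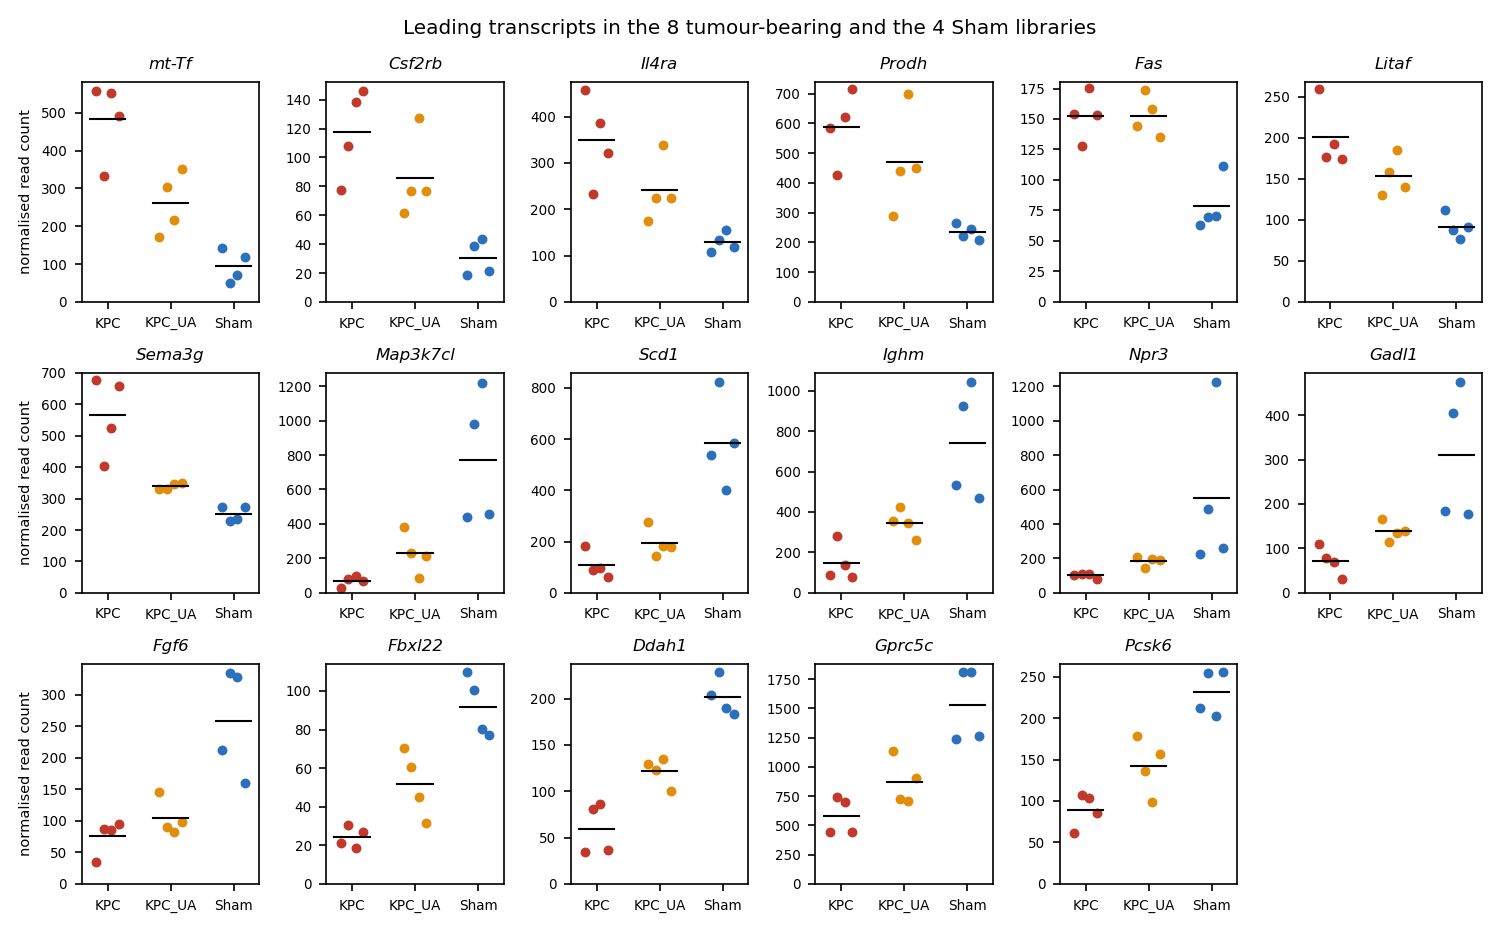
Normalised read count (vertical axes, each from 0) of the 17 leading genes in each KPC, KPC_UA and Sham library (points) with the group mean (bars). The rule that chose these genes required the 8 tumour-bearing points to lie on one side of the 4 Sham points. In Fas the 2 tumour-bearing groups have the same level while in Ddah1 they are apart.

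The lists were chosen with earlier results of these data known, so the counts of their members describe the lists and are no test. The counts of list members below are read against the shares of all 13244 genes. These were 7.23% higher and 8.29% lower at an unadjusted limma p, 1.9% and 2.11% by DESeq2, and 1.8% and 2.58% by limma with a weight per group. By edgeR the shares were 0.068% higher and 0.234% lower. Without KPC 1 and KPC 4, 8.8% of 13230 genes were higher and 9.24% lower at an unadjusted p. Ligases and FOXO factors of muscle atrophy were split. Of 21 tested, 6 were higher and 3 lower at an unadjusted limma p under 0.05, 5 were higher and 2 lower by limma with a weight per group, and the median difference was 0.19, against 0.01 over all genes. By edgeR 0 of the 21 were called higher and 1 lower. Trim63 had 236574, 10673, 31693 and 100634 in the KPC libraries, 5634, 8066, 17991 and 9189 in the KPC_UA libraries and 5422, 6705, 7220.0 and 6434 in the Sham libraries. The KPC libraries differed among themselves by over an order of magnitude and all lay above Sham, while KPC_UA 1 lay inside the Sham range. The pooled difference was 1.80 (SE 0.61, adjusted p = 0.196 by limma, 0.129 by edgeR and 0.0121 by DESeq2). Fbxo32 had 185316, 25653, 41563 and 90629 in the KPC libraries, 8185, 14740.5, 33644 and 18391 in the KPC_UA libraries and 7879.7, 9276, 12210.2 and 10907 in the Sham libraries. KPC_UA 1 again lay inside the Sham range, and the pooled difference was 1.72 (SE 0.46, adjusted p = 0.116 by limma, 0.0907 by edgeR and 0.000939 by DESeq2). Foxo1 and Foxo3 differed by 1.38 and 1.16, and their part in the differences of both ligases was not tested. Foxo6 went the other way, with 6.59, 83.1, 44.3 and 9.95 in the KPC libraries, 155, 208, 91.1 and 131 in the KPC_UA libraries and 335, 268, 278 and 278 in the Sham libraries. All tumour-bearing libraries were below all Sham libraries, KPC 1 and KPC 4 the most (difference -2.32, adjusted p = 0.0759 by limma and 0.0563 by edgeR). Fbxl22, named above, is a member of this list.

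All 32 proteasome subunits tested had a positive difference, with a median of 0.40, but 2 passed an unadjusted limma p under 0.05 and none passed with a weight per group. The median was 0.74 for KPC and 0.08 for KPC_UA against Sham, and without KPC 1 and KPC 4 the pooled median was 0.06. Psmd11, a lid subunit, had 12484, 2448, 2995 and 7423 in the KPC libraries, 2206, 2272, 2609 and 2439 in the KPC_UA libraries and 2049.8, 2190.2, 2210.1 and 2016 in the Sham libraries, where KPC 1 and KPC 4 stood above all others. Of 24 autophagy and lysosome genes, 7 were higher (against 7.23% of all genes) and 0 lower at an unadjusted p, with a median of 0.28, which was 0.08 without KPC 1 and KPC 4. Gabarapl1, which coats autophagosomes, had 15794, 1240.4, 2019 and 4405 in the KPC libraries, 915, 1149, 1296 and 1087 in the KPC_UA libraries and 786, 759.8, 851 and 839 in the Sham libraries. No tumour-bearing library overlapped Sham, KPC_UA by a small margin (difference 1.31, adjusted p = 0.227 by limma and 0.0261 with a weight per group, not called by edgeR). Bnip3, a mitophagy receptor, and Retreg1, a receptor for autophagy of the endoplasmic reticulum that was chosen after its values were seen, were likewise higher in all 8 libraries, by 0.99 and 1.54.

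Genes known to respond to glucocorticoids were the pathway list with the highest median, 1.12 over 18 members, of which 14 were higher (against 7.23% of all genes) and 0 lower at an unadjusted limma p under 0.05. DESeq2 called 10 higher (against 1.9% of all genes) and limma with a weight per group 6 (against 1.8%). By edgeR 0 of the 18 were called higher (against 0.068% of all genes). The median was 1.60 for KPC and 0.52 for KPC_UA against Sham, and 0.76 in the pooled contrast without KPC 1 and KPC 4. Sesn1, a stress-induced inhibitor of mTORC1, had 14861, 943, 1807 and 3276 in the KPC libraries, 535, 598, 1377 and 711 in the KPC_UA libraries and 369, 436, 387 and 491 in the Sham libraries. All 8 libraries were above Sham (difference 1.84, adjusted p = 0.147 by limma and 0.0206 with a weight per group, not called by edgeR). Glul, which makes glutamine, had 62878, 8775, 15593 and 16094 in the KPC libraries, 4221, 6778, 17336 and 10625 in the KPC_UA libraries and 2856, 3902, 2930.3 and 4230.5 in the Sham libraries. KPC_UA 1 lay inside the Sham range and the other 7 above it (difference 1.90, adjusted p = 0.0894 by limma). Klf15, a glucocorticoid-induced regulator of amino acid use, differed by 1.18, and Fkbp5, a chaperone of the receptor, by 1.63. Ddit4, an inhibitor of mTORC1, had 23568, 2760.3, 6506 and 7961 in the KPC libraries, 464, 717, 761 and 814 in the KPC_UA libraries and 459, 697, 472 and 925 in the Sham libraries. All KPC libraries lay above Sham (pooled difference 1.89, adjusted p = 0.0759 by limma), and KPC_UA overlapped Sham throughout.

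Of 30 genes of fatty acid oxidation and fasting, 20 were higher (against 7.23% of all genes) and 0 lower at an unadjusted limma p under 0.05, and the median was 0.46. With a weight per group 12 were higher (against 1.8% of all genes), and by DESeq2 also 12 (against 1.9%). By edgeR 0 of the 30 were called higher (against 0.068% of all genes). Without KPC 1 and KPC 4, 21 were higher (against 8.8% of all genes) and 1 lower at an unadjusted p, with a median of 0.41. Pdk4, the kinase that blocks pyruvate oxidation, had 215817, 29310.4, 63257 and 48013 in the KPC libraries, 7408, 7186, 29966 and 12221 in the KPC_UA libraries and 6462, 4963, 8845 and 12593 in the Sham libraries. The KPC libraries were all above Sham, whereas only KPC_UA 3 of its group was (difference 1.85, adjusted p = 0.116 by limma and 0.0383 by DESeq2, not called by edgeR). Acot2, a mitochondrial acyl-CoA thioesterase, had 6602, 777, 1148 and 2677 in the KPC libraries, 351, 459.5, 666 and 459.5 in the KPC_UA libraries and 317, 209, 298 and 340.5 in the Sham libraries. All 8 libraries were above Sham, KPC_UA 1 only just (difference 1.76, adjusted p = 0.0938 by limma and 0.0151 with a weight per group, not called by edgeR), though its paralog Acot1 lies beside it and the assignment of reads between them is uncertain. Ucp2, an uncoupling protein of the inner mitochondrial membrane, was higher in all 8 libraries by 1.19. Slc25a34, a mitochondrial carrier, had 3223, 723, 1184 and 1575 in the KPC libraries, 355, 419, 470.0 and 325 in the KPC_UA libraries and 289, 94.3, 174 and 378 in the Sham libraries. KPC_UA overlapped the highest Sham library there (difference 1.86, adjusted p = 0.0636 by limma). Mlycd, which removes the malonyl-CoA that blocks fatty acid entry, and Cd36, a fatty acid transporter, differed by 0.75 and 0.83. Of 18 genes of branched-chain amino acid breakdown, 7 were higher and 0 lower at an unadjusted p, and Bckdha, a subunit of the dehydrogenase, was higher in all 8 libraries (0.69). Of 13 amino acid transporters 7 were higher (against 7.23% of all genes) and 0 lower at an unadjusted p. DESeq2 called 2 of the 13 higher (against 1.9% of all genes), and edgeR and limma with a weight per group called 0. Their median was 0.69 for KPC and 0.07 for KPC_UA against Sham.

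Members of the insulin-like growth factor, myostatin and denervation lists included a few with large differences. Igf1, the growth factor itself, had 69.8, 101, 51.0 and 62.0 in the KPC libraries, 275, 131, 83.9 and 87.8 in the KPC_UA libraries and 238, 187, 263 and 227 in the Sham libraries. KPC_UA 1 lay above the Sham range and the other 7 libraries below it (difference -1.27, SE 0.29, adjusted p = 0.0835 by limma and 0.0356 with a weight per group, not called by edgeR). Of its 22-gene list, 5 were higher and 3 lower at an unadjusted p. Gdf11, a myostatin-related ligand, had 32.9, 130.2, 47.7 and 42.9 in the KPC libraries, 220.3, 195, 121 and 249 in the KPC_UA libraries and 228, 590.0, 629 and 301 in the Sham libraries. KPC_UA 4 lay inside the Sham range and 7 libraries below it (difference -1.96, SE 0.37, adjusted p = 0.0539 by limma and 0.0481 by edgeR). Mstn itself differed by 0.61, with 1.26 in KPC and -0.04 in KPC_UA. Of the 16 tested genes of the list, 0 were higher and 2 lower.

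Myog, the myogenic factor that rises in denervated muscle, had 73.8, 68.5, 114 and 93.4 in the KPC libraries, 74.1, 61.6, 124 and 57.2 in the KPC_UA libraries and 43.5, 42.9, 42.8 and 27.1 in the Sham libraries. The lowest tumour-bearing library was above the highest Sham library (difference 1.05, SE 0.24, adjusted p = 0.0844 by limma and 0.00442 by DESeq2, not called by edgeR). The acetylcholine receptor subunits Chrna1 and Chrnd differed by 1.03 and 1.45, and of 16 genes of the neuromuscular junction and denervation list 5 were higher and 1 lower at an unadjusted p. Gadd45a, a stress-induced nuclear protein of atrophying muscle, had 4950.0, 1108, 1743 and 4414 in the KPC libraries, 567, 1145, 1205 and 947 in the KPC_UA libraries and 624, 583, 466 and 558 in the Sham libraries. KPC_UA 1 lay inside the Sham range (difference 1.47, adjusted p = 0.0929 by limma). Cdkn1a, the cell cycle inhibitor p21, was higher in all 8 libraries, with 10458, 478, 578 and 1082 in the KPC libraries, 289.5, 301, 412 and 396 in the KPC_UA libraries and 259, 218, 122 and 250.1 in the Sham libraries. KPC 1 was far above the rest (difference 1.73, adjusted p = 0.218 by limma). Of 14 genes of the p53-linked list, 3 were higher and 1 lower, and of 16 genes of the ATF4 list 2 higher and 1 lower.

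In the interleukin-6 and STAT3 list, 7 of 17 genes were higher and 1 lower at an unadjusted limma p under 0.05 (against 7.23% and 8.29% of all genes), with a median of 0.46. Il6ra, the ligand-binding receptor chain, had 6130.2, 289.6, 652 and 1608 in the KPC libraries, 113, 125, 462 and 201 in the KPC_UA libraries and 81.7, 87.5, 70.2 and 97.4 in the Sham libraries. All 8 libraries were above Sham, with the KPC libraries spread over more than an order of magnitude (difference 2.48, SE 0.62, adjusted p = 0.0975 by limma and 0.0177 with a weight per group, not called by edgeR). Stat3 and its feedback inhibitor Socs3 differed by 0.46 and 0.52. Of 25 interferon and antigen presentation genes, 0 were higher and 4 lower (against 7.23% and 8.29% of all genes), with a median of -0.29. Gbp3, an interferon-induced GTPase, had 13.2, 77.5, 47.7 and 32.9 in the KPC libraries, 95.2, 75.7, 79.4 and 57.2 in the KPC_UA libraries and 99.3, 96.0, 96.5 and 110.5 in the Sham libraries, where every tumour-bearing library was below Sham, KPC_UA 1 only just (difference -0.93, adjusted p = 0.232 by limma). Of 14 NF-kB genes 2 were higher and 2 lower at an unadjusted limma p under 0.05 (against 7.23% and 8.29% of all genes). By edgeR 0 of the 14 were called in either direction. Relative to Sham, this list had a median of 0.45 in KPC but -0.01 in KPC_UA. The lower pair was Traf3 and Tnfaip3 (-0.87 and -1.18). Both encode inhibitors of the pathway, whose activity was not tested.

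The clock list had a median of 0.06, -0.02 under quantile normalisation, with 8 of 19 higher and 5 lower at an unadjusted p. Nr1d1, which encodes the repressor REV-ERB alpha, had 2898, 2557, 2179 and 1653 in the KPC libraries, 3218, 3283, 2125 and 2727 in the KPC_UA libraries and 4246, 4983, 4990.2 and 4012 in the Sham libraries. Every tumour-bearing library was below every Sham library (difference -0.85, SE 0.17, adjusted p = 0.0569 by limma and 0.0512 by edgeR). Nfil3, another clock repressor, was higher in all 8 libraries, KPC_UA 1 only just (1.09). Per2, a clock gene, had 383, 306, 401 and 276 in the KPC libraries, 358, 218, 438 and 399 in the KPC_UA libraries and 129, 166, 169 and 322 in the Sham libraries, where KPC_UA 2 and KPC 2 and KPC 4 lay within the Sham range set by Sham 4. The labels give no time of day of dissection.

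Targets of the oxidative stress factor NRF2 were higher in 10 of 16 and lower in 1 at an unadjusted p (against 7.23% and 8.29% of all genes), with a median of 0.55. Cat, catalase, had 6542, 3163, 3580.4 and 5091 in the KPC libraries, 1923, 1966, 2479.7 and 1938 in the KPC_UA libraries and 1516, 1319.8, 1484 and 1989.7 in the Sham libraries. The KPC libraries were above all others, and KPC_UA overlapped Sham (difference 0.95, adjusted p = 0.0569 by limma). Srxn1, which restores peroxiredoxins, Txnrd1, a thioredoxin reductase, Hmox1, which breaks down heme, and Mt1, a metallothionein, were higher in all 8 libraries, by 0.95, 0.42, 1.44 and 2.24. In Txnrd1, Hmox1 and Mt1 the lowest KPC_UA library was close to the highest Sham library. In the iron list, Tfrc, the transferrin receptor, had 239.7, 867, 538 and 138 in the KPC libraries, 5225, 1233, 971 and 1267 in the KPC_UA libraries and 4975, 3795, 4739 and 6815 in the Sham libraries. KPC_UA 1 lay inside the Sham range and the other 7 libraries were below it (difference -2.69, SE 0.49, adjusted p = 0.0539 by limma and 0.0516 by edgeR). Slc40a1, the iron exporter ferroportin, differed by 0.54.

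Lipid and sterol synthesis genes had a median of -0.32 over 19, with 2 higher and 6 lower at an unadjusted p. Beside Scd1, the desaturases Scd2 and Fads1 differed by -1.23 and -0.81 (adjusted p = 0.0669 and 0.0938 by limma), and the regulator Srebf1 by -0.67. Dgat2 and Acacb were higher, by 1.05 and 0.77.

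Of 29 collagen and matrix genes, 22 were lower (against 8.29% of all genes) and 0 higher at an unadjusted limma p under 0.05, and the median was -0.83. By DESeq2 14 were lower (against 2.11% of all genes) and with a weight per group also 14 (against 2.58%). By edgeR 1 of the 29 was called lower (against 0.234% of all genes). Without KPC 1 and KPC 4, 24 were lower at an unadjusted p (against 9.24% of all genes), with a median of -0.72. Col1a2, a chain of type I collagen, had 651, 1472, 969.9 and 596 in the KPC libraries, 2916, 2049, 1358 and 1633 in the KPC_UA libraries and 3170.5, 3591, 2868 and 4163 in the Sham libraries. KPC_UA 1 lay inside the Sham range and the other 7 libraries below it (difference -1.41, SE 0.25, adjusted p = 0.0539 by limma and 0.0481 by edgeR). Col1a1, Col3a1, Col5a1 and Col6a2 differed by -1.47, -1.53, -1.41 and -1.64, and Fbn1, Sparc and Mmp2, of the microfibrils, the matrix and its turnover, by -1.28, -0.72 and -0.79. Markers of tendon and some markers of fibro-adipogenic progenitors were also lower. Of the lists given below, 4 of 6 adipocyte and 2 of 5 satellite cell markers were lower at an unadjusted p. Those of the remaining cell types around the fibres mostly were not. All 7 tendon markers tested were lower at an unadjusted p, with a median of -1.95, and their summed level ranged from 393 to 1430 in KPC, 571 to 2276 in KPC_UA and 2202 to 3128 in Sham. Tnmd, tenomodulin, had 18.4, 25.8, 7.76 and 4.59 in the KPC libraries, 48.1, 57.0, 8.12 and 25.6 in the KPC_UA libraries and 67.3, 119, 81.1 and 123 in the Sham libraries. No tumour-bearing library overlapped Sham (difference -2.32, adjusted p = 0.0702 by limma). The summed level of 9 fibro-adipogenic progenitor markers ranged from 7774 to 14776 in KPC, 10370 to 12750 in KPC_UA and 11088 to 16197 in Sham, with 1 marker higher (Ly6a, 0.65) and 4 lower (for instance Lum, -1.25, and Mfap5, -1.15). The part of tendon or of these cells in the collagen difference was not tested. In RNA of whole muscle, fewer cells of a type and less RNA per cell cannot be told apart.

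Adipocyte markers were lower in 4 of 6 tested at an unadjusted limma p under 0.05 (against 8.29% of all genes), with a median of -1.32. The other 2 had a positive difference and did not pass that p. Plin1, which coats lipid droplets, had 5.27, 5.61, 5.54 and 3.83 in the KPC libraries, 33.7, 27.1, 9.92 and 21.7 in the KPC_UA libraries and 49.7, 78.9, 23.0 and 57.2 in the Sham libraries, and Adipoq, adiponectin, ranged from 8.87 to 19.8 in KPC, 13.5 to 55.8 in KPC_UA and 34.0 to 99.5 in Sham. KPC was the lowest group in both, and KPC_UA overlapped Sham (Plin1 difference -2.08, adjusted p = 0.0539 by limma and 0.0481 by edgeR). The summed level of the 6 markers ranged from 2220 to 3822 in KPC, 2177 to 3959 in KPC_UA and 2735 to 4086 in Sham, so that the rare transcripts Plin1 and Adipoq moved more than the sum.

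All 6 erythroid markers were higher at an unadjusted limma p (against 7.23% of all genes), with a median of 1.71, while edgeR and limma with a weight per group called 0 of them and DESeq2 1. Without KPC 1 and KPC 4, 2 of the 6 passed an unadjusted p, with a median of 1.47. Their sum ranged from 2790 to 10659 in KPC, 2486 to 15997 in KPC_UA and 749 to 3445 in Sham. Hbb-bs, a beta globin, had 3076, 1226, 2871 and 5359 in the KPC libraries, 1230.2, 7589.8, 1460.4 and 2933 in the KPC_UA libraries and 1689.8, 363, 513 and 1589 in the Sham libraries, with overlap of the groups, and its reads may be shared with Hbb-bt. Of 6 neutrophil markers 3 were tested and all 3 were higher at an unadjusted p, also without KPC 1 and KPC 4, with sums from 30.3 to 189 in KPC, 33.7 to 78.5 in KPC_UA and 9.87 to 22.8 in Sham. S100a9, a neutrophil calcium-binding protein, had 15.8, 21.3, 49.9 and 101 in the KPC libraries, 13.5, 13.1, 30.7 and 29.6 in the KPC_UA libraries and 6.21, 5.15, 4.39 and 3.01 in the Sham libraries. All 8 tumour-bearing libraries were above Sham (difference 2.33, SE 0.45, adjusted p = 0.0552 by limma and 0.0551 by edgeR). The part of these cells in the differences of Csf2rb, Il4ra, Litaf or Fas was not tested. Macrophage markers had a median of 0.28 with 0 of 8 past an unadjusted p, and endothelial markers 0.02 with 2 higher and 1 lower of 8. Pericyte and smooth muscle markers had a median of -0.18, with 0 of 7, Schwann cell markers 0.20, with 0 of 4, and satellite cell markers -0.23, with 2 lower of 5. The tumour and pancreas epithelium list had no member among the tested genes.

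The 7 skeletal muscle fibre markers were abundant in every library and had a median of -0.10. Acta1, skeletal actin, ranged from 356690.0 to 498604 in KPC, 494046 to 652002 in KPC_UA and 517244 to 608113 in Sham. Sarcomere genes had a median of -0.13 with 1 of 24 higher and 5 lower, and calcium handling genes -0.23 with 0 of 16 higher and 3 lower, among them Casq1, the calcium store of the sarcoplasmic reticulum (-1.16). Of 6 slow fibre markers only Myl2, the slow regulatory light chain, was lower at an unadjusted p, with 6.74 to 15.5 in KPC, 12.8 to 16.4 in KPC_UA and 22.3 to 103 in Sham. No tumour-bearing library reached the Sham range (difference -1.88, adjusted p = 0.0539 by limma and 0.0481 by edgeR), at low counts for a muscle of fast fibres. Nuclear oxidative phosphorylation genes had a median of 0.00 with 0 of 28 past an unadjusted p in either direction, and regulators of mitochondria -0.07 with 1 higher and 1 lower of 14. Glycolysis and glycogen genes had a median of -0.11 with 1 of 21 higher and 5 lower. Ribosomal proteins had a median of 0.17 with 0 of 30 past an unadjusted p, translation factors 0.20 with 4 of 20 higher, chaperones 0.06 with 0 of 18, the dystrophin complex -0.05 with 1 of 16 lower, polyamine metabolism -0.14 with 1 of 14 higher and 3 lower, and metallothioneins and zinc transporters 0.22 with 3 of 12 higher. Smox, the spermine oxidase of the polyamine list, differed by -1.06.

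**Figure D3:**
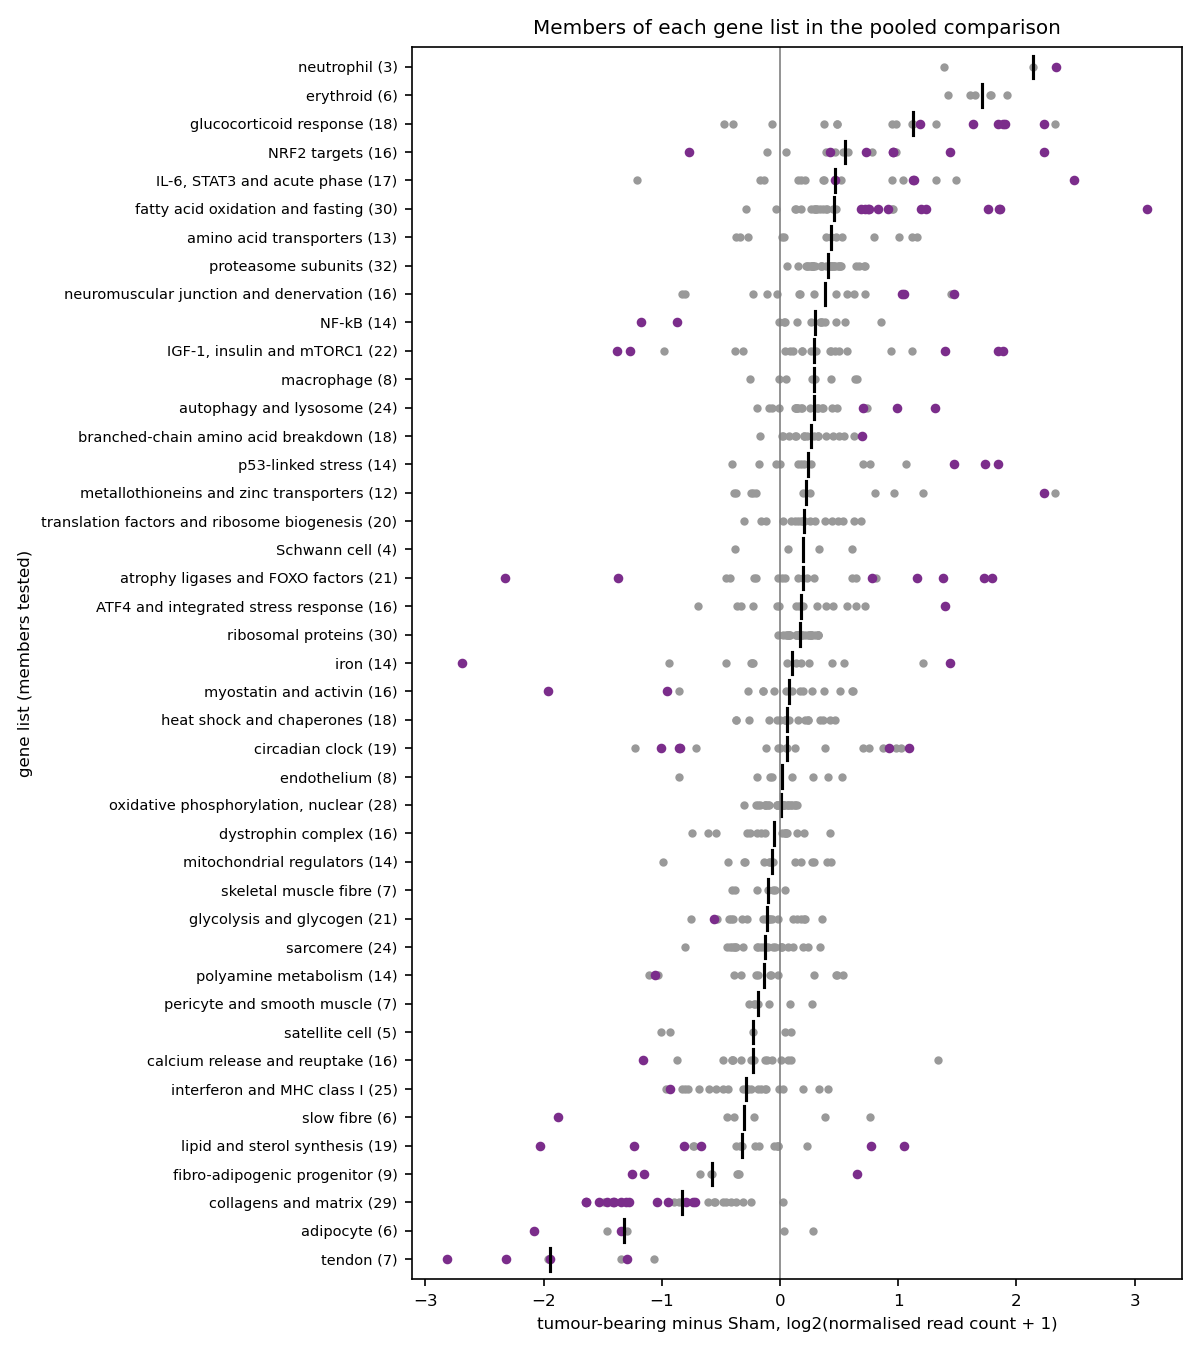
Difference of each tested member (points) of the 43 gene lists with at least 3 tested members, tumour-bearing minus Sham on the log2(normalised read count + 1) scale, with the list median (bars), lists ordered by median. Purple points have an adjusted p under 0.05 by limma with a weight per group, and the glucocorticoid and fatty acid lists lie mostly right of 0 while the collagen and tendon lists lie left of it.

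The pooled difference averages 2 groups that were not always alike. The KPC_UA and KPC differences share the same 4 Sham libraries, so they are given side by side, with the 95% interval of KPC_UA minus KPC, which does not use Sham for the difference itself. Between those groups limma called 0 genes (0.0%), edgeR 2 and DESeq2 640, and 2775 genes (21.0%) had an unadjusted limma p under 0.05. The smallest adjusted p was 0.0552 by limma. Fas differed from Sham by 0.98 in KPC_UA and 0.98 in KPC, with an interval for KPC_UA minus KPC of -0.43 to 0.44. Per2 differed by 0.88 in KPC_UA and 0.87 in KPC (interval -0.59 to 0.63), Myog by 0.96 and 1.14 (interval -0.78 to 0.42), Osmr by 0.998 and 1.25 (interval -0.80 to 0.29) and Fgf6 by -1.27 and -1.79 (interval -0.21 to 1.26). These intervals include 0, which does not show that the groups are alike.

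Other genes had most of their pooled difference in KPC. Ddit4 differed from Sham by 0.14 in KPC_UA and 3.64 in KPC, and KPC_UA minus KPC was -3.50 (interval -4.54 to -2.45). Trim63 differed by 0.54 in KPC_UA and 3.05 in KPC (KPC_UA minus KPC -2.52, interval -4.04 to -0.997), Fbxo32 by 0.73 and 2.71 (-1.98, -3.11 to -0.84), and Pdk4 by 0.61 and 3.10 (-2.49, -3.71 to -1.26). Among lower genes Tfrc differed by -1.57 in KPC_UA and -3.81 in KPC (2.25, 1.03 to 3.46), Map3k7cl by -1.80 and -3.43 (1.63, 0.59 to 2.68) and Scd1 by -1.58 and -2.49 (0.92, 0.24 to 1.60). None of these differences between chows passed an adjusted p of 0.05 in limma.

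**Figure D4:**
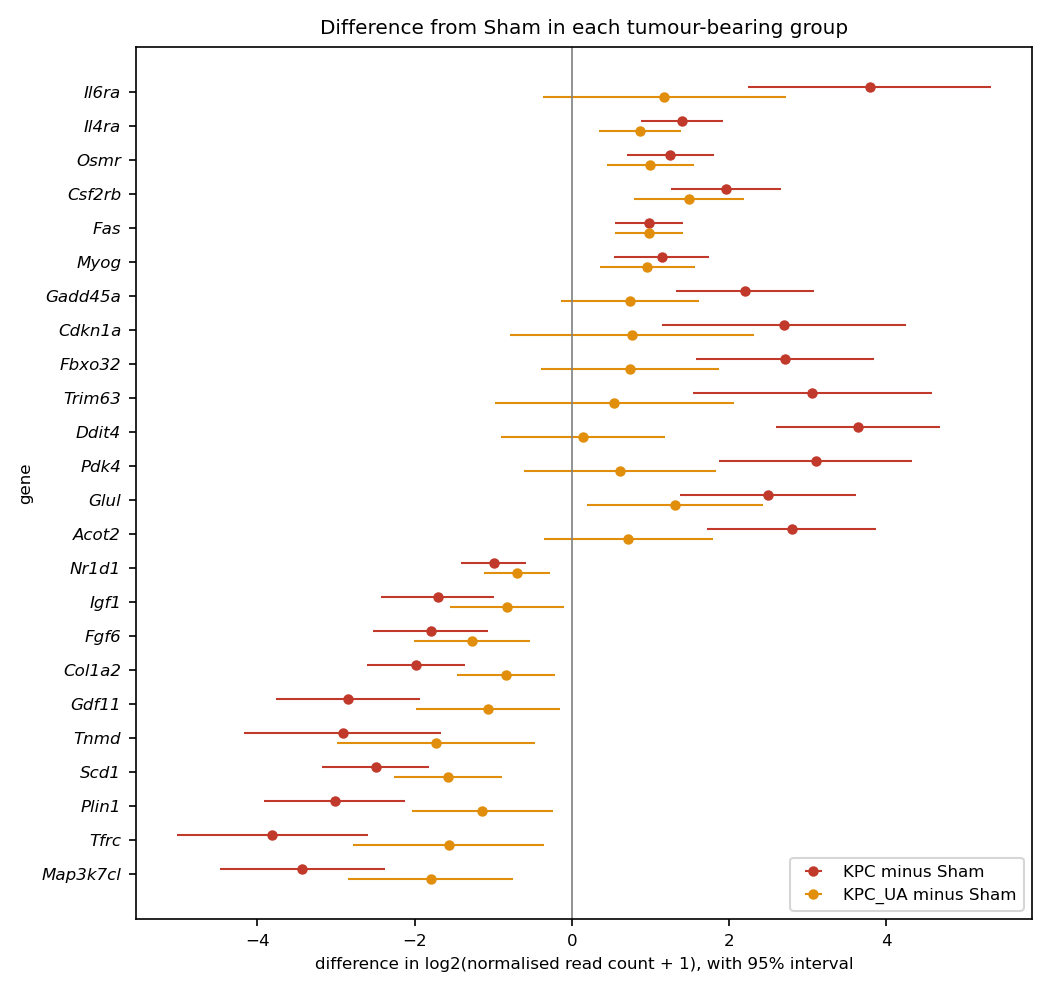
Difference from Sham with its 95% interval on the log2(normalised read count + 1) scale for 24 genes (rows), red for KPC and orange for KPC_UA, both against the same 4 Sham libraries. Fas and Myog have nearly the same difference in both groups, whereas Ddit4 and Trim63 lie far from 0 in KPC with intervals that include 0 in KPC_UA.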

How the data were processed

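RNA sequencing was done on 12 tibialis anterior samples, 4 each of KPC, KPC_UA and Sham. The submitters' processing notes name GRCm38 and the tools bcl2fastq 2.17, Subread 1.5.2 and featureCounts, while the aligner, the annotation and any use of strand were not given in the sources used here. Each of the 3 tables deposited by the authors sets one group against another and gives every gene a normalised signal in each of 8 libraries. They list 13557, 13583 and 13578 genes, of which 13244 are common to all 3. Every column is a multiple of its own step, and division by that step returned whole reads in 100% of cases (within 0.01 reads). The tables that share a library returned equal reads in 100% of cases. The deposited signal is therefore reads divided by a size factor per library and table. The authors' deposited log2 fold changes, p-values and other columns were not used.

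Reads of the 12 libraries were rescaled together by median-of-ratios size factors. Genes were tested with limma 3.58.1 (R 4.3.3, trend and robust, two-sided) on log2(value + 1), with 3 group means, a mean of at least 10 normalised reads, and Benjamini-Hochberg adjustment over 13244 genes at 0.05. The pooled contrast is the mean of KPC and KPC_UA minus Sham. edgeR 4.0.16, DESeq2 1.42.0 and limma with a weight per group were alternatives, with other pseudocounts, filters and scalings, a replicate block, and each library left out. DESeq2 gave no adjusted p for 54 genes. The scripts were tested on simulated data. Python 3.11.15 made tables and figures. No sample was left out, and depth was 22.3 to 32.0 M reads in the tested genes.

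Genes were named by rule, namely the 10 largest called increases and decreases without overlap and with a mean of at least 50, up to 3 members of each of 45 gene lists with the smallest p, and a panel of known atrophy genes. The rule on called genes found 0 with limma, so edgeR's calls were used. Members and lists were chosen with earlier results of these data known. Retreg1, Acss1, Rab27a, Nfil3, Ucp2, Srxn1, Bnip3 and Hlf, other list members named with a value, and the Trim63 promoter were chosen after their values were seen. Some items are not reported here. Symbols and coordinates of 13217 identifiers come from GENCODE M21 on GRCm38, and promoter sequences from RefSeq on GRCm38.p6.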

Additional observations from a re-analysis of the deposited data

Results flagged for a closer look

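Of 453 sets of 4 libraries tested for one that stood apart (each named gene in each group, on the log2 scale), 21 had a highest or lowest library whose gap to the next, divided by the range of the group, was above Dixon's 95% critical value for 4 samples. Chance flags about 1 in 20 such sets. Sham 4 accounted for 6, KPC 1 and KPC_UA 1 for 5 each, KPC_UA 3 for 2, and KPC 4, KPC_UA 2 and Sham 3 for 1 each.

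In KPC 1 the normalised read count was the lowest of KPC for Fgf6 (34.2), the oxidative phosphorylation subunits Ndufb10 (2811) and Cyc1 (4282) and the caveolin Cav3 (215), and the highest of KPC for Mstn (5336). In KPC 4 Plin1 was the lowest of KPC (3.83). In KPC_UA 1 the proteasome subunit Psma5 (1073), the zinc transporter Slc39a8 (11.5) and the elongation factor Eef2 (35124) were the lowest of KPC_UA, and Tfrc (5225) and Sspn (3013), of the dystrophin complex, the highest. In KPC_UA 2 Casq1 was the highest of KPC_UA (57743). In KPC_UA 3 Cat was the highest (2480) and the tendon gene Fmod the lowest (75.8) of KPC_UA. In Sham 4 Ldha (68079), Pkm (113976), Tpm1 (297970), Pvalb (133940) and Myog (27.1) were the lowest of Sham, and Sat1 (410) the highest. In Sham 3 the myelin gene Pmp22 (172) was the lowest of Sham.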

How the results depend on the processing

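Of 3912 values of 151 named genes under 26 settings, 3477 kept their direction and their side of the limma threshold, 434 kept their direction and passed it, and 1 changed sign, Bag3 (-0.0228 without KPC 1 and KPC 4). The number of genes called tumour-bearing against Sham was 0 in limma, 37 with a pseudocount of 5, 1 with TMM scaling, 71 with quantile normalisation, 581 with a weight per group, 40 with edgeR, 530 with DESeq2 and 279 without KPC 1 and KPC 4. Leaving out 1 library gave 0 to 473. KPC_UA against KPC gave 0 in limma, 4 with quantile normalisation, 1 with a weight per group, 2 with edgeR, 640 with DESeq2 and 6 without KPC 1 and KPC 4, and 0 to 978 with 1 library left out, the highest without KPC 2. The 301 genes with no overlap became 937 without KPC 4, KPC_UA 2 and Sham 1, and 319 to 804 with 1 library left out, the highest without KPC_UA 1, where fewer libraries leave less room for overlap. With the replicate number as a block, limma called 3 genes in the pooled contrast and 0 between chows. The labels do not say that numbers mark pairs, and 1 of 12 correlations between same-numbered libraries was over 0.1. With 4 libraries per group such correlations cannot decide whether same-numbered libraries were paired or handled together. The causes of these changes in count were not tested. The comparison held 4 Sham libraries, and KPC had the widest spread in 75.9% of genes. Genes not listed in all 3 tables could not be tested.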
